A study of Mus musculus with 15 samples.

Results

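The genes described here are 9 transporters and channels that move chloride or bicarbonate across the membranes of developing brain cells, taken as a fixed list of names out of 53337 genes in the series. They are Slc12a2, Slc12a4, Slc12a5, Slc12a7, Slc4a3, Slc4a8, Slc26a4, Clcn2 and Clcn3. Levels were read in dorsal forebrain of C57BL/6J mouse embryos at embryonic day 18, from dams that carried a subcutaneous minipump releasing arginine vasopressin (AVP) or saline vehicle from before mating through gestation. The 15 mRNA-seq libraries came from 4 AVP males, 4 vehicle males, 3 AVP females and 4 vehicle females, each named here by group and replicate number. A further AVP female library that the study excluded is not analysed here. The infusion models the raised vasopressin of preeclampsia, and AVP was given to the dam, so a maternal and a direct action of AVP cannot be told apart. Per the study, the libraries of a group came from separate litters. The study drew its sequenced brains from 8 litters, so male and female libraries share litters, and the labels do not link them. The fits over both sexes, the interaction and the correlations over 15 libraries take libraries as independent and ignore shared litters. The labels number the libraries in 2 blocks, 1 to 8 and 13 to 20, and do not state what the blocks stand for.

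GABA, the main inhibitory transmitter of the adult brain, depolarizes immature neurons because they hold a high internal chloride concentration. Chloride enters through the sodium-potassium-chloride cotransporter NKCC1, the product of Slc12a2, and leaves through the neuronal potassium-chloride cotransporter KCC2, the product of Slc12a5. As Slc12a5 rises with neuronal maturation, GABA turns from depolarizing to hyperpolarizing, which is the GABA switch. The other members extrude chloride with potassium (Slc12a4, Slc12a7), exchange chloride for bicarbonate and other anions (Slc4a3, Slc4a8, Slc26a4) or conduct it (Clcn2, Clcn3).

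Slc12a5 has a pair of annotated promoters, whose products KCC2a and KCC2b differ in their first exon, and they are shown because the split of its transcripts between them is measured below. Each window ends at the base before the first annotated transcript of that start. Both are from RefSeq in GRCm38.p6 on the plus strand, chr2:164960596-164960801 for the upstream promoter and chr2:164967738-164967982 for the downstream promoter. Capitals mark an E-box, CACGTG, the motif bound by the upstream stimulatory factors.
upstream Slc12a5 promoter: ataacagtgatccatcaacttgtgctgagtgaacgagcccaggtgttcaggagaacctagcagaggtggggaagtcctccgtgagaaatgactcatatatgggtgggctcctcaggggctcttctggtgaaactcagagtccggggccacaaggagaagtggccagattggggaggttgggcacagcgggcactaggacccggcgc
downstream Slc12a5 promoter: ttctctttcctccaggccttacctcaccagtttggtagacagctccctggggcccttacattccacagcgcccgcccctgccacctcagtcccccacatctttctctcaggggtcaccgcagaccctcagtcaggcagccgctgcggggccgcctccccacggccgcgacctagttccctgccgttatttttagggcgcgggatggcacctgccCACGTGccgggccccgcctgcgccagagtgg
The downstream window of 245 bases held 1 E-box, a palindrome that reads the same on both strands, which ends 26 bases before the first transcript start. The upstream window of 206 bases held none. Among 32851 promoters cut to the same lengths, 5.85% and 4.5% held an E-box, respectively. The EGR motif GCGGGGGCG or GCGTGGGCG, searched on both strands with no overlap with the E-box, was in neither window, against 2.94% and 2.07% of all promoters. The CRE motif TGACGTCA (1.5% and 0.895% of promoters) and TATAAA (12.2% and 9.38%) were in neither window. The downstream window held 66.5% G and C, above 85.5% of promoters, and the upstream window 57.3%, above 67.1%. A match or its absence describes these letters only.

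Values are TPM, a transcript abundance per length of the transcript in which every library sums to the same total, so levels of different genes can be compared. Transcripts were summed to genes. TPM hold no counts, and the depth behind a value is unknown. In 14 of 15 libraries the sex-linked transcripts matched the label. In the library labelled vehicle male 3 they were those of a female, with Xist at 266 TPM. The male fold changes of the tested members, the male ratio, Slc26a4 in males, the Slc12a7 interaction and the counts between the sexes are also given without it. Start-site shares, coding and non-coding levels, retained-intron shares and pathway genes in males are given only with it. Cortical plate neuron markers were present throughout, with Neurod6 between 471 and 728 TPM. Thalamic markers were low and not absent. The summed TPM of 5 of them was 5.35 to 7.74 in AVP males, 5.87 to 13.2 in vehicle males, 6.20 to 17.7 in AVP females and 6.34 to 10.9 in vehicle females, led by Prox1 (2.03 to 6.80 TPM) and Lhx9 (0.126 to 5.98), with Gbx2 at or below 0.276 TPM and at 0 in 5 libraries. Their part in the results was not tested. Choroid plexus marker levels varied between libraries. The summed TPM of 10 choroid plexus markers ranged from 10.2 to 642 in AVP males, 9.47 to 712 in vehicle males, 28.5 to 2288 in AVP females and 9.23 to 964 in vehicle females, led by Ttr (1.53 to 2197 TPM), with Folr1 and Slc4a5 at 0 in 1 library each.

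Across all 15 libraries Clcn3 had the highest mean level (40.7 ± 3.06 TPM, SD, n = 15) and Slc26a4 the lowest (0.191 TPM, between 0 and 0.905). Between them stood Slc4a3 (35.3 TPM), Clcn2 (24.9), Slc12a2 (15.1), Slc12a5 (13.4), Slc4a8 (12.6), Slc12a4 (10.9) and Slc12a7 (9.91). Ranges overlapped for each neighbouring pair in this order except Slc12a7 and Slc26a4. Slc4a3 exceeded Clcn2, and Clcn2 exceeded Slc12a2, in 15 of 15 libraries. Slc12a2 exceeded Slc12a5 in 11 libraries and Slc12a5 exceeded Slc4a8 in 7, so the order in the middle is not distinct. The order also depended on which transcripts were counted. With protein-coding transcripts only, Slc12a2 moved from rank 4 to rank 2 and Slc4a3 from rank 2 to rank 7.

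**Figure D1:**
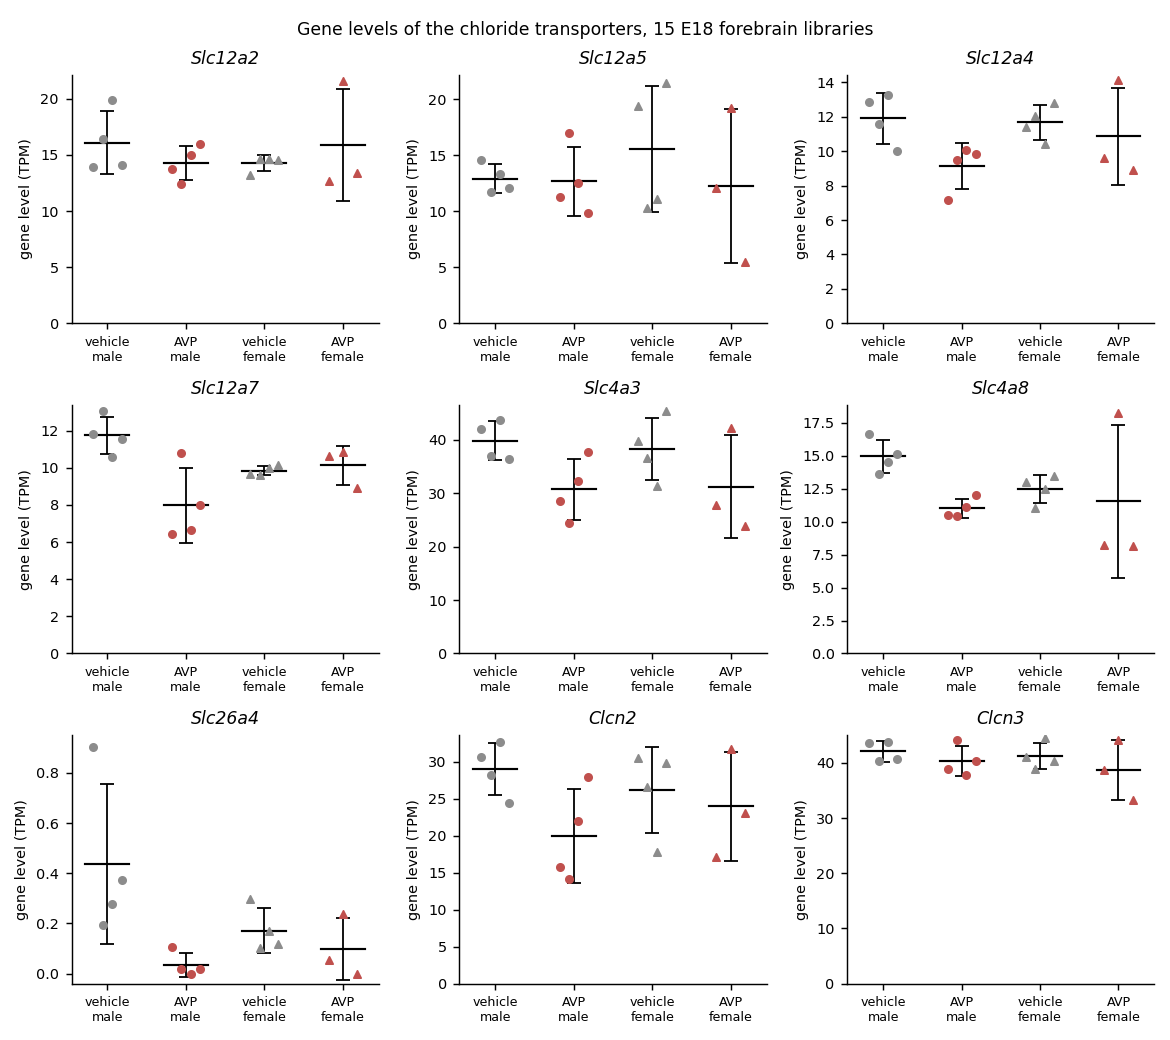
Gene level in TPM (vertical axes, from 0 upward) of each of the 9 genes in the 15 libraries, by group. Points are libraries, black lines the group mean and bars the SD (n = 4, or 3 for AVP females). Slc4a8 and Slc26a4 are the genes whose AVP and vehicle males do not overlap. Among the members above 1 TPM, Slc12a5 shows the widest scatter among females relative to its mean.

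Slc12a2, which loads neurons with chloride, lies on chromosome 18 from 57878678 to 57946821 on the plus strand (ENSMUSG00000024597) and was read from 1 protein-coding transcript. It was at 13.9, 16.5, 19.9 and 14.1 TPM in vehicle males and at 13.7, 12.4, 15.03 and 15.95 TPM in AVP males. In vehicle females it was at 13.3, 14.7, 14.7 and 14.6 TPM, and in AVP females at 12.7, 21.6 and 13.4 TPM. The groups overlapped in both sexes, and vehicle male 3 and AVP female 2 were the highest of their groups. The log2 fold change of AVP over vehicle, on log2(TPM + 0.5), was -0.16 in males (95% interval -0.46 to 0.15) and 0.11 in females (-0.33 to 0.54). Neither passed limma's test (adjusted p = 0.615 and 0.999). Without the library labelled vehicle male 3 the male value was -0.052 (-0.33 to 0.22).

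Slc12a5, the chloride extruder that rises as neurons mature, lies on chromosome 2 from 164960802 to 164999731 on the plus strand (ENSMUSG00000017740). It was at 14.6, 11.7, 13.3 and 12.04 TPM in vehicle males and at 11.3, 17.03, 12.5 and 9.86 TPM in AVP males. In vehicle females it was at 19.4, 10.3, 11.1 and 21.4 TPM, and in AVP females at 12.1, 19.2 and 5.51 TPM. The groups overlapped in both sexes, and AVP female 3 was the lowest of all libraries. Slc12a5 had the widest spread of the 8 members above 1 TPM, with a coefficient of variation of 31.4% over the 15 libraries, against 7.51% for Clcn3. The log2 fold change was -0.05 in males (95% interval -0.41 to 0.31, adjusted p = 0.911, limma) and -0.42 in females (-1.37 to 0.53, adjusted p = 0.999). The male value had the opposite sign with median-of-ratios scaling (0.06), and the female value without AVP female 3 (0.04). These intervals do not show that AVP left Slc12a5 unaltered.

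Slc12a5 level moved with the level of neuron maturation markers. The summed TPM of 10 neuron maturation markers, among them Snap25 and Stmn2, ranged from 2315 to 2883 in AVP males, 2448 to 2875 in vehicle males, 1900 to 2741 in AVP females and 2497 to 2899 in vehicle females, with no marker at 0. Over the 15 libraries Pearson's r between log2 marker sum and log2 Slc12a5 was 0.82 (permutation p = 0.00066, adjusted p = 0.00225 over 22 relations computed), and Spearman's rho was 0.70 (p = 0.00472, adjusted p = 0.0115). Without the 2 libraries farthest from the median marker sum r was 0.53. It was 0.94 in the 7 AVP and 0.49 in the 8 vehicle libraries, and 0.87 and 0.80 in the 2 blocks of label numbers. For Slc12a2 the same r was 0.09 (permutation p = 0.833, adjusted p = 0.901). Fewer neurons and less Slc12a5 RNA per neuron cannot be told apart in tissue libraries, and the part of the maturity markers in the group differences was not tested.

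The ratio of Slc12a2 to Slc12a5, a transcript index of the balance of chloride loading and extrusion, was above 1 in 11 of the 15 libraries. It was 0.955, 1.40, 1.49 and 1.17 in vehicle males and 1.22, 0.731, 1.201 and 1.62 in AVP males. In vehicle females it was 0.685, 1.42, 1.32 and 0.680, and in AVP females 1.05, 1.13 and 2.42. AVP female 3 held the highest ratio and the lowest maturation marker sum. Slc12a2 was read from a coding transcript only, while coding transcripts made up 45.6% to 90.7% of the Slc12a5 level of a library. With coding transcripts alone the ratio was 0.806 in AVP male 2, 0.977 in vehicle female 1 and above 1 in all other libraries. That of AVP female 3 was then 5.31. The means and tests that follow use all transcripts. The mean log2 ratio was 0.31 ± 0.29 (SD, n = 4) in vehicle males, 0.20 ± 0.48 (n = 4) in AVP males, -0.05 ± 0.58 (n = 4) in vehicle females and 0.50 ± 0.67 (n = 3) in AVP females. The AVP minus vehicle difference was -0.11 in males (exact two-sided permutation p = 0.743) and 0.55 in females (exact permutation p = 0.343). Over both sexes it was 0.22 (p = 0.453, exact permutation within sex), and the difference of the 2 differences, female minus male, was 0.66 (p = 0.257, exact permutation within sex). With 4 against 4 libraries the smallest possible p is 0.0286, and with 3 against 4 it is 0.0571, so the female comparison alone could not reach 0.05. Without AVP male 2 the male difference turned to 0.11, and without the library labelled vehicle male 3 it was -0.02. In males it was -0.29 within the first block of label numbers and 0.08 within the second, and in females 0.09 and 0.80. These splits hold few libraries. AVP female 1 is the only AVP female of the first block, and the second holds AVP female 2 and AVP female 3.

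**Figure D2:**
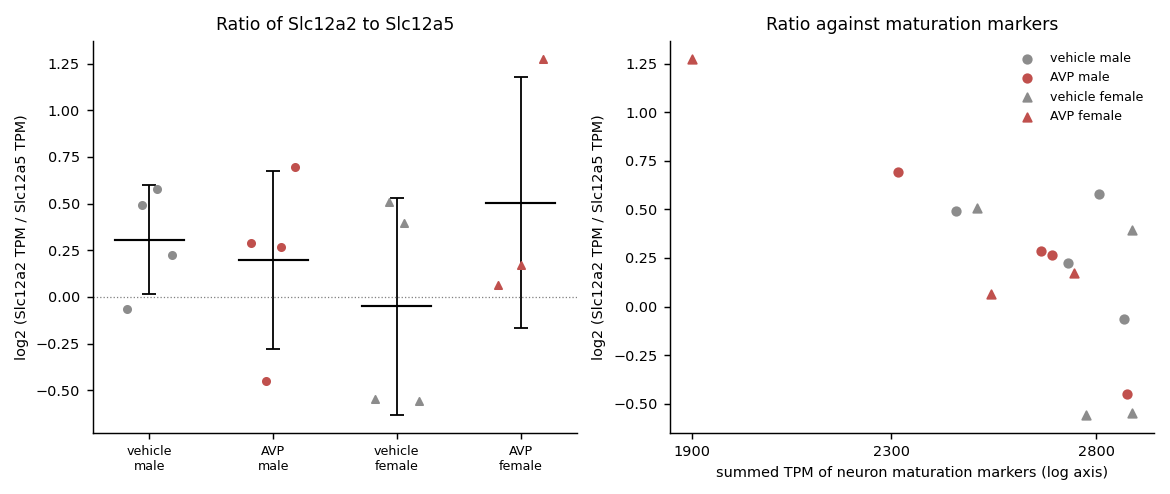
Left, log2 of Slc12a2 TPM over Slc12a5 TPM (vertical axis) in each library by group, with the mean and SD. Right, the same ratio against the summed TPM of 10 neuron maturation markers (horizontal log axis). AVP female 3, with a ratio of 2.42 and a marker sum of 1900 TPM, stands at the upper left.

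The log2 ratio went the other way and fell with the marker sum over the 15 libraries (Pearson's r = -0.77, permutation p = 0.00082, adjusted p = 0.00225; Spearman's rho = -0.65, p = 0.0112, adjusted p = 0.0246). Without the 2 libraries farthest from the median r was -0.51, and it was -0.93 in the AVP and -0.49 in the vehicle libraries, and -0.89 and -0.74 in the 2 blocks. The ratio contains Slc12a5, whose own r with this marker sum was 0.82, beside 0.09 for Slc12a2. The relation of the ratio is therefore not independent of that of Slc12a5. Against the summed TPM of radial glia markers, which label the progenitors, r of the log2 ratio was -0.21 (permutation p = 0.455, adjusted p = 0.589). Both parts of the ratio had a positive r with these markers. It was 0.53 for Slc12a2 (permutation p = 0.0469, adjusted p = 0.0938) and 0.46 for Slc12a5 (permutation p = 0.083, adjusted p = 0.140). Spearman's rho was 0.30 and 0.29.

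Coding transcripts of Slc12a5 came more from the downstream start, that of KCC2b, than from the upstream start in 15 of 15 libraries. Downstream coding transcripts, all but a trace from Slc12a5-201, were at 6.10 ± 2.26 TPM and upstream ones, mainly Slc12a5-207, at 3.53 ± 1.304 TPM (SD, n = 15). The upstream share was 37.8 ± 8.25% in AVP males, 36.3 ± 7.72% in vehicle males, 35.2 ± 10.3% in AVP females and 36.9 ± 8.65% in vehicle females. It differed between AVP and vehicle by 1.45 percentage points in males (exact permutation p = 0.771) and by -1.77 points in females (exact permutation p = 0.743). The downstream start, the one with the E-box in its window, was the one with the larger coding level, and a link between motif and level was not tested.

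**Figure D3:**
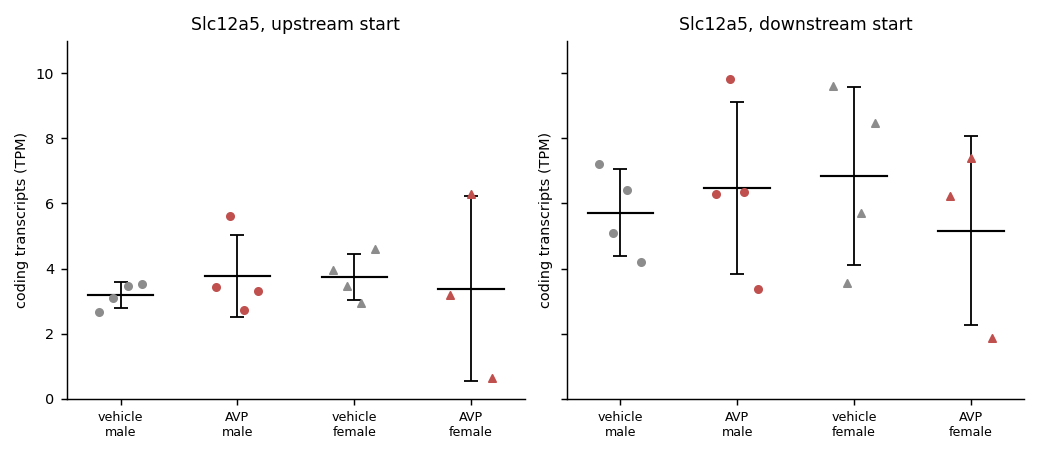
Level of protein-coding Slc12a5 transcripts (TPM, vertical axes from 0 on the same scale) from the upstream and the downstream start, by group, with library points, mean and SD. AVP female 3 is the lowest library at both starts (0.643 and 1.87 TPM).

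Slc12a4 (KCC1) and Slc12a7 (KCC4) are potassium-chloride cotransporters of many cell types that serve volume control. Slc12a7, on chromosome 13 from 73733094 to 73816754 on the plus strand (ENSMUSG00000017756), was at 11.8, 13.04, 10.6 and 11.5 TPM in vehicle males and at 6.42, 10.8, 6.64 and 8.02 TPM in AVP males. In females it was at 9.68, 9.60, 9.96 and 10.2 TPM with vehicle and at 10.6, 10.9 and 8.91 TPM with AVP. AVP male 2 alone reached into the range of the vehicle males. The log2 fold change was -0.56 in males (95% interval -0.92 to -0.19, unadjusted p = 0.0074, adjusted p = 0.304, limma) and 0.03 in females (-0.27 to 0.34). Slc12a4, on chromosome 8 from 105943590 to 105966097 on the minus strand (ENSMUSG00000017765), was at 12.8, 11.6, 13.2 and 9.99 TPM in vehicle males and at 7.19, 9.49, 10.1 and 9.84 TPM in AVP males. In vehicle females it was between 10.4 and 12.8 TPM, and in AVP females between 8.89 and 14.1 TPM. Its log2 fold change was -0.37 in males (-0.68 to -0.06, adjusted p = 0.323, limma) and -0.12 in females (-0.53 to 0.29), and the groups overlapped in both sexes.

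Slc4a3 (AE3) exchanges internal bicarbonate for chloride, and Slc4a8 (NDCBE) brings in sodium and bicarbonate while extruding chloride. Slc4a8, on chromosome 15 from 100761747 to 100823968 on the plus strand (ENSMUSG00000023032), was at 16.6, 13.6, 14.5 and 15.1 TPM in vehicle males and at 10.5, 10.4, 11.1 and 12.01 TPM in AVP males. The groups of males did not overlap. In females it was at 13.01, 11.1, 12.5 and 13.5 TPM with vehicle and at 8.24, 18.3 and 8.13 TPM with AVP, so the AVP females lay on both sides of the vehicle females. Slc4a8 was the 1 of 8 tested members whose AVP and vehicle males did not overlap. Among all genes tested in males 7.27% had groups that did not overlap, and among those tested in females 5.55%, where 0 of 8 members did so. The Slc4a8 log2 fold change was -0.43 in males (95% interval -0.64 to -0.21, unadjusted p = 0.00149, adjusted p = 0.304, limma) and -0.21 in females (-0.83 to 0.41). Slc4a3, on chromosome 1 from 75546266 to 75562172 on the plus strand (ENSMUSG00000006576), was at 42.0, 37.0, 43.8 and 36.5 TPM in vehicle males and at 28.5, 24.4, 32.3 and 37.7 TPM in AVP males. It was between 31.4 and 45.4 TPM in vehicle females and between 23.8 and 42.1 TPM in AVP females. Its log2 fold change was -0.38 in males (-0.68 to -0.08, adjusted p = 0.312, limma) and -0.32 in females (-0.79 to 0.15), and the groups overlapped in both sexes.

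Slc26a4 (pendrin) is an anion exchanger of the inner ear, thyroid and kidney. The study called it differentially expressed in male forebrain at a false discovery rate under 0.05, with a fold change among its largest. The study's own test was not run here. Slc26a4 lies on chromosome 12 from 31519827 to 31559969 on the minus strand (ENSMUSG00000020651). It was listed at 0.905, 0.196, 0.278 and 0.373 TPM in vehicle males and at 0.106, 0.0171, 0 and 0.0201 TPM in AVP males. In vehicle females it was at 0.298, 0.1003, 0.169 and 0.117 TPM, and in AVP females at 0.0545, 0.236 and 0 TPM. Slc26a4 was under 1 TPM in 15 of 15 libraries and was left out of the fit across genes by the filter on low values. The males did not overlap, with a difference of -0.76 on log2(TPM + 0.5) and the smallest exact permutation p that 4 against 4 allows (0.0286). Without the library labelled vehicle male 3 it was -0.83 (exact permutation p = 0.0571, the smallest that 3 against 4 allows). The study named the gene from these libraries, so this describes them and is not independent evidence. Without the filter limma gave an adjusted p of 0.464. The separation of the males rested on a transcript of 385 bases, Slc26a4-202, listed at 0.779, 0, 0.0654 and 0.282 TPM in vehicle males and at 0 in the other 11 libraries. The protein-coding Slc26a4-201 alone was at 0.126, 0.196, 0.212 and 0.0907 TPM in vehicle males, and AVP male 1 at 0.106 TPM overlapped them, with a difference of -0.29 (exact permutation p = 0.0571). This alternative was chosen after seeing the data.

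Clcn2 encodes the inwardly rectifying chloride channel ClC-2, and Clcn3 encodes ClC-3, a chloride-proton exchanger of endosomes and synaptic vesicles. Clcn2, on chromosome 16 from 20702964 to 20717746 on the minus strand (ENSMUSG00000022843), was at 30.6, 28.2, 32.7 and 24.5 TPM in vehicle males and at 15.8, 14.1, 22.1 and 28.01 TPM in AVP males. In vehicle females it was at 30.5, 26.6, 17.8 and 29.8 TPM, and in AVP females at 17.1, 31.8 and 23.1 TPM. AVP male 4 lay in the range of the vehicle males, and the females overlapped. The log2 fold change was -0.57 in males (95% interval -1.03 to -0.11, adjusted p = 0.318, limma) and -0.14 in females (-0.70 to 0.43). Clcn3, on chromosome 8 from 60910389 to 60983300 on the minus strand (ENSMUSG00000004319), varied least, between 37.8 and 44.1 TPM in AVP males, 40.3 and 43.8 TPM in vehicle males, 33.3 and 44.2 TPM in AVP females and 38.8 and 44.5 TPM in vehicle females. Its log2 fold change was -0.06 in males (-0.23 to 0.10) and -0.10 in females (-0.37 to 0.18), and the male value turned to 0.05 with median-of-ratios scaling. Coding Clcn3 transcripts came mainly from the upstream of its pair of promoters, with a share of 72.8 ± 6.29% (SD, n = 15), and its share differed between AVP and vehicle by -2.29 points in males (exact permutation p = 0.371) and 6.55 points in females (exact permutation p = 0.457).

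Over all members, 0 of 8 passed an adjusted p of 0.05 in males, where 0.00655% of 15271 genes did so. In females, over both sexes, for the interaction of treatment and sex, and between the sexes, 0 of 8 members passed as well, with 0% of genes called in each. Between the sexes, 7 of 15164 genes were called without the library labelled vehicle male 3, 0 of them members. Leaving out other libraries also gave calls, 7 without vehicle female 1, 6 without each other vehicle female and 1 without AVP male 3. Of those genes, 0 were members. At an unadjusted p under 0.05, 5 of 8 members were lower in AVP males (Slc4a8, Slc12a7, Slc4a3, Clcn2 and Slc12a4), against 13.5% of all genes past that p in either direction. Without AVP male 1 there were 3, against 1233 of 15169 genes. Likewise there were 3 without the library labelled vehicle male 3, against 1225 of 15051 genes. Without that library the male log2 fold changes were -0.44 for Slc4a8, -0.60 for Slc12a7, -0.34 for Slc4a3, -0.51 for Clcn2, -0.31 for Slc12a4, -0.034 for Slc12a5 and -0.044 for Clcn3, and Slc4a8, Slc12a7 and Slc4a3 kept an unadjusted p under 0.05. In females 0 of 8 members had such a p, against 4.51% of genes. The median log2 fold change of the 8 members was -0.37 in males, beside -0.10 for all genes tested, and -0.13 in females, beside -0.05. Median-of-ratios scaling moved the male median of all genes from -0.10 to 0.00. On that scale 6 members were lower and 2 higher, with 4 unadjusted p under 0.05, against 1769 of 15264 genes. Libraries of both sexes are shared with the comparison over both sexes, where the count was 5 of 8 against 10.4% of genes. There it fell to 1 without AVP male 1, AVP female 3, vehicle male 1 or the library labelled vehicle male 3, to 2 without AVP male 2, AVP male 3, AVP female 1, vehicle male 2, vehicle male 4 or vehicle female 4, and to 3 without vehicle female 2. In these fits the genes with such a p ran from 936 of 15205 (without AVP female 3) to 1731 of 15167 (without vehicle male 2). For the interaction, Slc12a7 was the 1 member with an unadjusted p under 0.05, against 4.14% of genes, with a difference between female and male log2 fold changes of 0.59 (95% interval 0.15 to 1.03, adjusted p = 0.896, limma). Without the library labelled vehicle male 3 it was 0.64 (0.17 to 1.11). With protein-coding transcripts only it was 0.36, with 0 members at that p, against 553 of 12799 genes. Between the sexes 0 of 8 members had an unadjusted p under 0.05, against 1.39% of genes. Without the library labelled vehicle male 3 it was likewise 0, against 210 of 15164 genes.

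**Figure D4:**
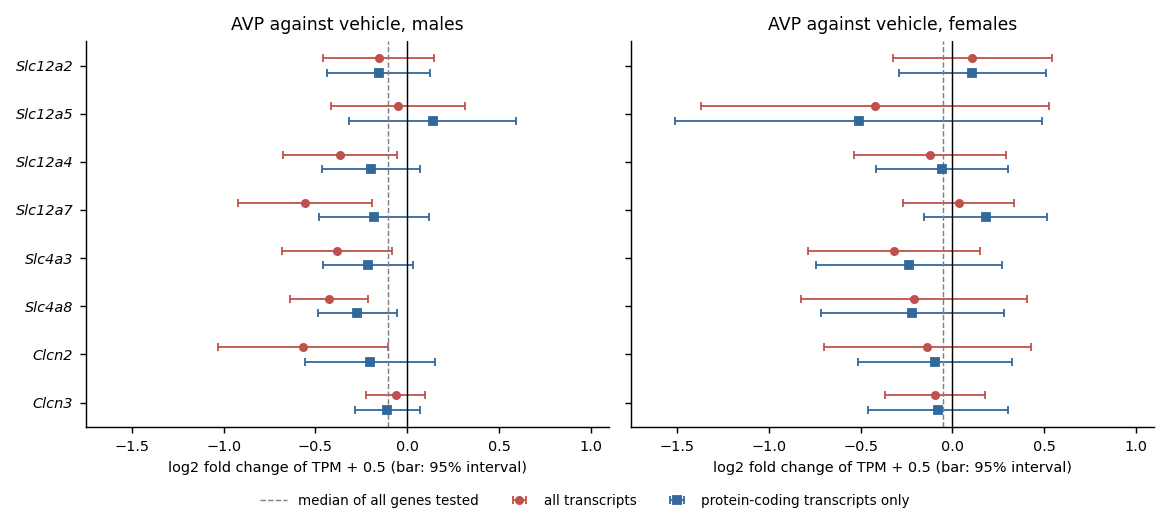
Log2 fold change of AVP over vehicle (horizontal axis, on TPM + 0.5) with 95% intervals from limma for the 8 members above the filter, in males and females. Circles sum all transcripts and squares protein-coding transcripts only, and the dashed line is the median of all genes tested (-0.10 and -0.05). In males most circles lie further left than the squares, and in females the intervals cross 0.

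A large part of the gene levels came from transcripts that are not annotated as coding. Protein-coding transcripts made up 18.5% of the mean Slc4a3 level and 35.4% of Clcn2, against 71.7% of Slc12a5 and 83.6% of Clcn3. In Slc4a3 the leading transcript was Slc4a3-201, annotated for nonsense-mediated decay (14.7 ± 2.94 TPM, SD, n = 15), ahead of the coding Slc4a3-202 (5.97 ± 0.926 TPM). In Clcn2, retained-intron transcripts held 60.3% of the level, led by Clcn2-207 (5.91 TPM) and Clcn2-209 (4.56 TPM). With protein-coding transcripts only, the male log2 fold changes were -0.20 for Clcn2, -0.18 for Slc12a7, -0.20 for Slc12a4, -0.21 for Slc4a3 and -0.27 for Slc4a8. On that scale 1 of 8 members, Slc4a8, had an unadjusted p under 0.05 (adjusted p = 0.376, limma), against 1439 of 12869 genes tested. Coding Slc4a8 was at 8.76, 8.91, 9.30 and 8.74 TPM in vehicle males and at 7.06, 8.13, 7.04 and 7.04 TPM in AVP males, which do not overlap. Coding Slc4a3 did not overlap either, at 7.63, 6.76, 6.84 and 6.82 TPM in vehicle males and at 5.27, 5.86, 6.11 and 6.71 TPM in AVP males. The other members overlapped in coding level. Non-coding Slc12a4 was at 4.17, 4.08, 5.21 and 3.81 TPM in vehicle males and at 0.854, 2.51, 3.604 and 3.57 TPM in AVP males. Non-coding Slc12a5 was at 4.73, 3.54, 3.47 and 4.33 TPM in vehicle males and at 1.53, 1.59, 3.44 and 3.17 TPM in AVP males. Neither overlapped, and each of these 4 separations has the smallest exact permutation p that 4 against 4 allows (0.0286, unadjusted). For summed gene levels 7.27% of all genes tested in males did not overlap. No such share is given here for coding or non-coding levels, so these separations describe the libraries and are not a result about the members. Non-coding transcripts of Slc12a7 differed most, from 5.19, 4.70, 3.86 and 5.01 TPM in vehicle males to 0.515, 3.98, 1.64 and 1.02 TPM in AVP males, and AVP male 2 overlapped them.

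**Figure D5:**
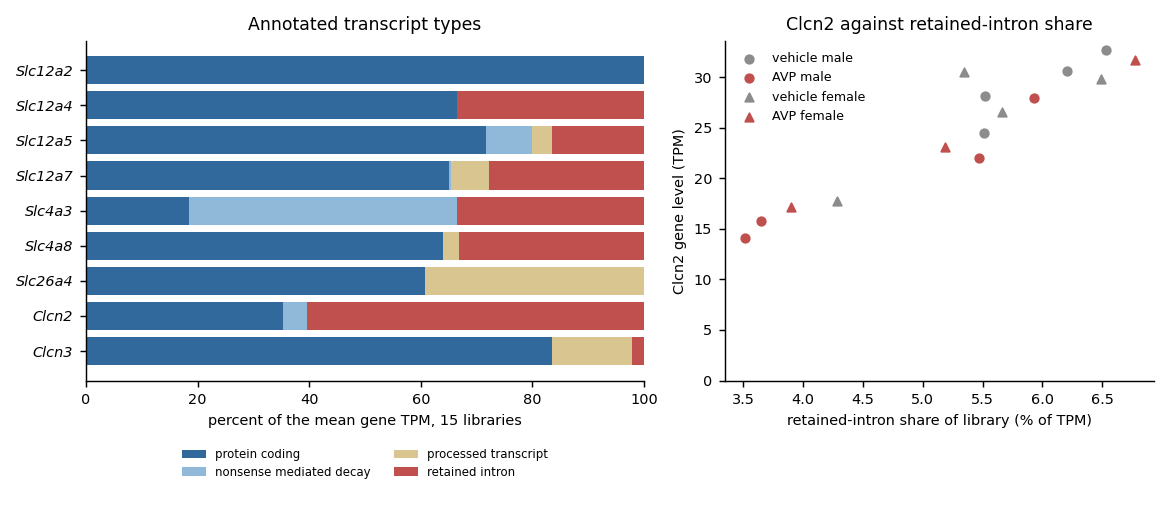
Left, percent of each gene's mean level over 15 libraries (horizontal axis) held by each annotated transcript type. Right, Clcn2 gene level (TPM, from 0) against the share of a library's TPM on retained-intron transcripts of all other genes (horizontal axis, percent). Clcn2 is 60.3% retained intron, and its level rises with the library share.

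The libraries differed in their share of retained-intron transcripts over all genes other than the members. It was 3.65, 3.51, 5.47 and 5.93% of TPM in AVP males and 6.20, 5.52, 6.53 and 5.51% in vehicle males, a difference of -1.30 percentage points (exact permutation p = 0.114). AVP females were at 3.895, 6.77 and 5.19% and vehicle females at 5.34, 5.66, 4.28 and 6.49%. Clcn2 level followed this share over the 15 libraries (Pearson's r = 0.95, Spearman's rho = 0.90, each with p = 2e-05, the smallest that 100000 permutations can give, adjusted p = 0.00044). Without the 2 libraries farthest from the median r was 0.91, and it was 0.98 in AVP, 0.86 in vehicle, and 0.97 and 0.97 in the 2 blocks of label numbers. The share also went with Slc4a3 (r = 0.84, adjusted permutation p = 0.00209), Slc12a4 (r = 0.80, adjusted permutation p = 0.00205), Slc12a2 (r = 0.69, adjusted permutation p = 0.00225) and Slc4a8 (r = 0.68, adjusted permutation p = 0.0151). For these 4 genes Spearman's rho was 0.89, 0.85, 0.75 and 0.75, with adjusted permutation p of 0.00088, 0.00103, 0.00741 and 0.00741, and r without the 2 farthest libraries was 0.77, 0.73, 0.66 and 0.70. Within AVP and within vehicle libraries r was 0.78 and 0.94 for Slc4a3, 0.75 and 0.82 for Slc12a4, 0.87 and 0.38 for Slc12a2, and 0.68 and 0.43 for Slc4a8. In the first and the second block it was 0.96 and 0.77 for Slc4a3, 0.88 and 0.76 for Slc12a4, 0.61 and 0.69 for Slc12a2, and 0.80 and 0.56 for Slc4a8. It was 0.23 for Slc12a5, 0.26 for Slc12a7 and 0.14 for Clcn3, with adjusted permutation p of 0.563, 0.513 and 0.734. For coding transcripts alone r was 0.83 for Clcn2 (adjusted permutation p = 0.00205). It was lower for Slc12a4 (0.58, adjusted permutation p = 0.0509), Slc4a8 (0.48, 0.140) and Slc4a3 (0.36, 0.342). Their Spearman's rho was 0.54, 0.71 and 0.49, with adjusted permutation p of 0.0789, 0.0102 and 0.114. Coding r was -0.005 for Slc12a5, 0.07 for Slc12a7 and -0.07 for Clcn3, and that of Slc12a2 is unaltered because its only transcript is coding. Library points share their totals, and the part of this share in the male differences was not tested.

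The leading transcript of a member did not pass the test for a change in its share of the gene. Of 14 tests, 7 genes in 2 sexes, 0 had an adjusted p under 0.05 by exact permutation, and 0 had an unadjusted one. The share of Clcn2-201 was 41.5 ± 5.78% in AVP males and 32.2 ± 4.19% in vehicle males (SD, n = 4 each, exact permutation p = 0.0571, adjusted p = 0.6). The share of Slc12a7-201 was 79.4 ± 12.9% and 60.0 ± 4.30% (exact permutation p = 0.0857, adjusted p = 0.6).

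Genes of the pathways around the members were counted in lists with a threshold of 0.05, and 0 passed an adjusted p in any of the 5 comparisons. The lowest adjusted p of any list in males was 0.304 (limma). The list counts below, at an unadjusted p in males, stand beside the 13.5% of all genes tested that had such a p in either direction. Slc12a9, a CCC-interacting protein, was at 9.96 ± 2.45 TPM in AVP males against 13.8 ± 1.08 TPM in vehicle males (SD, n = 4 each, log2 fold change -0.48, adjusted p = 0.310, limma). Among 15 tested other chloride channels, 4 were lower at an unadjusted p under 0.05 in males and 0 higher, including Ttyh3, a calcium-activated chloride channel candidate, 155 ± 8.43 against 183 ± 8.95 TPM, and the list median was -0.20 beside -0.10 for all genes tested. Clcn4, the endosomal exchanger next to Clcn3 in the family, was at 96.7 ± 4.19 and 107 ± 5.99 TPM. Among 10 tested other bicarbonate and SLC26 exchangers, 2 were lower at that p and 0 higher, including Slc4a2 (AE2), 14.9 ± 1.90 against 18.8 ± 2.13 TPM, while Slc4a7, a sodium bicarbonate cotransporter, was at 14.2 ± 2.50 and 17.03 ± 1.13 TPM, and the list median was -0.23. Among 11 kinases and regulators of the cotransporters, 0 had such a p, with Ckb, brain creatine kinase, at 426 ± 21.4 and 423 ± 37.8 TPM, Cab39 at 99.8 ± 4.81 and 96.6 ± 3.63 TPM, and a list median of -0.09. Among 5 regulators of Slc12a5 transcription 1 was lower, Nfix, a nuclear factor, 250 ± 34.1 against 339 ± 49.1 TPM, while Usf1, which binds E-boxes, was at 181 ± 19.9 and 196 ± 29.9 TPM, and the list median was -0.13.

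Among 14 tested GABA-A and glycine receptor subunits, which form the chloride channels on which the gradient acts, 0 had an unadjusted p under 0.05 in either sex, beside 13.5% of all genes tested in males and 4.51% in females. All 14 had a fitted log2 fold change below 0 in females, with a median of -0.29 beside -0.05 for all genes tested. In males 8 of 14 were below 0, with a median of -0.05 beside -0.10. The AVP females include AVP female 3, the library lowest in maturation markers. The summed markers of 3 other cell types did not overlap between AVP and vehicle females. They were 148 to 203 and 90.8 to 104 TPM for meningeal fibroblasts, 175 to 179 and 99.6 to 160 TPM for endothelium, and 33.7 to 61.1 and 62.5 to 94.6 TPM for oligodendrocyte precursors. The part of these cell types in the female values was not tested. Each of the 3 separations had an unadjusted exact permutation p of 0.0571, the smallest that the female comparison allows. They were picked from a longer set of cell-type sums. The meningeal fibroblast markers include Col1a1, Col1a2, Dcn, Slc6a13 and Postn, which the study called differentially expressed in females from these libraries. That separation is therefore not independent of the study's result.

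The genes most like Slc12a5 over the 15 libraries, among those with a mean of at least 10 TPM, were Rab6b (r = 0.94), Tspan17 (0.93), Scd1 (0.93), Serpine2 (0.93) and Clstn3 (0.93). Those least like it were Rpl13a (-0.85), Tmsb4x (-0.82) and Rps20 (-0.81). For Slc12a2 the most alike were Ppp1r12a (0.91), Qk (0.91), Cep70 (0.90), Pdcd6ip (0.90) and Lix1 (0.90), and the least alike Rps19 (-0.87), 6330403K07Rik (-0.83) and Gpx1 (-0.83). These are Pearson's r of log2(TPM + 0.5), chosen as extremes of all genes, and describe the libraries only. Slc12a2 and Slc12a5 had an r of 0.19 with each other. Slc12a5 had r = 0.68 with Clcn3, its highest among the members, and Slc12a2 had r = 0.63 with Slc4a8, its highest.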

How the data were processed

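Per the labels and the methods, stranded mRNA libraries were made from total RNA of dorsal forebrain, and the authors trimmed adapters with Trim Galore 0.4.1 and quantified GENCODE M16 transcripts (GRCm38) with kallisto 0.43.1, with strand in use and bias correction. Values in the deposited table are TPM for each transcript in each library, scaled by the authors to length and to a common sum. The table holds no counts, so count models and intervals from depth were not used.

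Gene levels were the sums over 133849 transcripts, grouped into 53337 genes by GENCODE M21 (same assembly), leaving out 404 transcripts with no gene in it (0.154% to 0.199% of TPM). This sum weighs short non-coding transcripts as much as coding ones. A gene entered a comparison if 50% or more of its libraries reached 1 TPM. The test was limma's (3.58.1, R 4.3.3) on log2(TPM + 0.5), two-sided and with a trend of variance on level, and p-values were adjusted over all genes tested by Benjamini-Hochberg at 0.05. Males and females were fitted separately with treatment as the term, and the interaction over 15 libraries. A fold change on this scale understates that of low genes. Ratios, shares and Slc26a4 had exact permutation tests (scipy 1.17.1), and correlations 100000 permutations. P-values measure the spread between these libraries, and those that span both sexes ignore shared litters. The fit was tested on simulated data with known changes. Apart from no change, these were larger than the fitted changes of the members. The power of the fit at the size of the members' changes was not measured. Members, lists and marker genes were chosen with earlier results of these data known. Named genes were the 9 members, 2 genes per pathway list with the highest mean TPM, and the 5 most and 3 least alike to Slc12a2 and Slc12a5. Some of the genes that this rule names are not reported here. Alternatives were pseudocounts of 0.1 and 1, no filter, 5 TPM in every library, median-of-ratios and quantile scaling, coding transcripts only, no trend, the block of label numbers as a covariate, 1 fit of 15 libraries and leaving out each library. Coding transcripts only for Slc26a4 was added after seeing the data. Sleuth was not run. Figures were drawn with matplotlib 3.10.9.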

Additional observations from a re-analysis of the deposited data

Results flagged for a closer look

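Slc12a2 in vehicle female 1, at 13.3 TPM, stood apart from the other 3 vehicle females, which lay between 14.6 and 14.7 TPM, by the gap to its nearest neighbour relative to the range of the group. The distance is small beside the spread of Slc12a2 over the other groups. It was the 1 such library in 30 groups of 4 examined, where chance gives about 1 in 20, or 1.5.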

How the results depend on the processing

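No member passed an adjusted p of 0.05 in any comparison under any alternative run, with 0 called without each library in turn. The number of members with an unadjusted p under 0.05 ranged over the alternatives from 1 to 6 in males, 0 to 2 in females and 1 to 5 over both sexes. The number of all genes with such a p moved too. In males it was 1439 of 12869 where 1 member had it (coding transcripts only) and 2836 of 31145 where 6 did (no filter). In females it was 1605 of 15308 where 2 members had it (without AVP female 2). Of 472 recomputed log2 fold changes of single members, 20 changed sign and 452 kept direction and side of the threshold. With median-of-ratios scaling the male values of Clcn3 and Slc12a5 were 0.048 and 0.059 and the value of Slc12a2 over both sexes 0.039. With quantile normalization these were 0.064, 0.10 and 0.059, and Clcn3 over both sexes was 0.019. With coding transcripts only, male Slc12a5 was 0.14. Leaving out a library gave ranges of -0.20 to 0.056 for Slc12a5 in males, -0.81 to 0.043 in females, -0.19 to 0.0084 for Clcn3, -0.017 to 0.12 for Slc12a7, -0.32 to 0.0034 for Slc12a4, -0.36 to 0.079 for Clcn2 and -0.13 to 0.25 for Slc12a2 in females, and -0.15 to 0.028 for Slc12a2 over both sexes. The cause of these changes was not tested. The log2 ratio of Slc12a2 to Slc12a5 over both sexes was -0.10 within the first block of label numbers, where AVP female 1 is the only AVP female. In males it was 0.078 within the second. Leaving out a library, it ranged from -0.27 to 0.11 in males, 0.17 to 0.77 in females and 0.03 to 0.33 over both sexes, and its difference between sexes from 0.28 to 0.88. The Slc26a4 difference in males was -0.29 with coding transcripts only (exact permutation p = 0.0571), an alternative added after seeing the data. It ranged from -0.88 to -0.54 without each library, where 3 against 4 libraries cannot reach 0.05. For isoform shares 0 tests passed without each library, and none could, given the smallest possible p. Depth is unknown, so values under 1 TPM, as for Slc26a4, have no counting interval. No paired analysis was possible because the labels carry no replicate numbers: those used here only name libraries in order and are not tied to litters.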

Other observations

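Next to Clcn2 at 60.3%, 3 members held more than 33% of their level on retained-intron transcripts, namely Slc12a4 (33.5%), Slc4a3 (33.5%) and Slc4a8 (33.1%).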
